A study of Mus musculus with 12 samples.

Results

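The STAT proteins are transcription factors that carry signals from cytokine and hormone receptors to the nucleus. A ligand brings its receptor chains together, the Janus kinases bound to them phosphorylate the receptor and then a STAT, and phosphorylated STATs form dimers that enter the nucleus and bind DNA; suppressors of cytokine signalling, several of them induced by STATs, shut the receptor off. In liver, STAT3 is known for driving acute phase genes downstream of interleukin 6 family cytokines, STAT5A and STAT5B for driving growth hormone responsive genes, STAT2 for the interferon response as the partner of IRF9, STAT6 for interleukin 4 and interleukin 13 signalling, and STAT4 for interleukin 12 signalling in lymphocytes. These steps act on proteins, and the arrays measured transcripts alone.

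Transcripts of 6 STAT genes, Stat2, Stat3, Stat4, Stat5a, Stat5b and Stat6, are described here. A member was kept where a transcript cluster (the group of probes that the array summarises into 1 value) was annotated to that gene and to no other; each of the 6 had exactly 1 such cluster. They are 6 of 19938 genes with a cluster of their own. Of these, 13977 genes exceeded the 40th percentile of their own array on 3 or more arrays and were tested, among them 5 STAT genes; Stat4 was below that level in all 12 arrays and was not tested.

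The arrays held whole liver RNA of mice aged 2 weeks, with 3 arrays (A, B and C) for each of 4 genotypes. Stat3Fl/Fl livers carried floxed Stat3, that is, alleles flanked by recombination sites, and Stat3Δhc livers carried deleted Stat3. Stat3Fl/FlMdr2-/- and Stat3Δhc Mdr2-/- livers had the same Stat3 genotypes together with a knockout of Mdr2, the older name of Abcb4, the canalicular exporter of phosphatidylcholine; mice that lack it serve as the sclerosing cholangitis model named in the title. The design states that the arrays were meant to find pathways behind the cholestasis and bile acid injury of the doubly mutant mice. The labels give neither strain, nor the promoter that drove the recombinase, nor the cells it acted in, nor whether the 3 arrays of a genotype came from separate mice, so p-values measure the spread between these arrays. For the Mdr2-/- arrays the source name gives the Stat3 genotype the other way round from the title, the description and the genotype field, and arrays were grouped by title; grouping by source name would exchange those 2 genotypes and turn the sign of the Stat3 comparison made on the knockout. The Stat3 signal itself followed the titles.

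Several features of the arrays moved with the Mdr2 genotype and stand beside every Mdr2 comparison. Abcb4 itself read 10.10 ± 0.04 (SD, n = 3) in Stat3Fl/Fl, 10.14 ± 0.14 in Stat3Δhc, 9.13 ± 0.23 in Stat3Fl/FlMdr2-/- and 9.06 ± 0.26 in Stat3Δhc Mdr2-/-, and fell by 0.98 on the log2 scale in floxed and by 1.08 in Stat3 deleted liver. The mean log2 signal of 15 skeletal muscle transcripts lay between 8.20 and 8.98 in the 6 Mdr2-intact arrays and between 5.51 and 5.92 in the 6 knockout arrays. That of 12 measured exocrine pancreas transcripts spread from 5.74 to 10.04 without the knockout and from 5.44 to 5.82 with it, and that of 6 measured erythroid transcripts lay between 6.73 and 7.05 without it and between 6.32 and 6.62 with it. The mean of 9 measured hepatocyte transcripts lay between 12.35 and 12.62 over all 12 arrays. It was 12.35 to 12.55 in Stat3Fl/Fl and 12.59 to 12.62 in Stat3Δhc, without overlap. Of these 9, 2 rose for the mean effect of Stat3 deletion, 22.2% beside 10.2% of all tested genes: Tat (0.75) and Cps1 (0.38). For the mean Mdr2 effect 1 of the 9 rose and 2 fell, 33.3% beside 24.6%. Of 10 endothelial markers 1 rose and 5 fell for the mean Mdr2 effect, and the lowest mean level of the 10 was 8.79 among the arrays of the other genotypes, against 8.42 to 8.68 in Stat3Δhc Mdr2-/-. Of 9 stellate cell markers 2 rose and 2 fell for that effect: Col1a1 (0.41), Pdgfrb (0.37), Lrat (-0.50) and Des, desmin (-1.60). All 15 skeletal muscle transcripts also fell for the mean Mdr2 effect, and the part of muscle in the fall of Des was not tested. Of 5 tested bile duct markers 2 fell. The called shares of the endothelial, stellate cell and bile duct markers were 60%, 44.4% and 40%, beside 24.6% of all tested genes. For the mean effect of Stat3 deletion 4 of 12 macrophage markers fell, 33.3% beside 10.2% of all tested genes: Adgre1 (-0.47), Timd4 (-0.45), Csf1r (-0.42) and Vsig4 (-0.40). The mean of those 12 markers lay between 8.56 and 9.08 in floxed and between 8.36 and 8.71 in deleted arrays. Of the 9 stellate cell markers 2 fell for the mean effect of Stat3 deletion, 22.2% beside 10.2%: Lrat (-0.59) and Reln (-0.42). The part of these cell types in the receptor and target gene results was not tested. Y-linked transcripts were high and Xist low in all 6 arrays without the knockout, Xist was high and Y-linked transcripts low in the 3 Stat3Fl/FlMdr2-/- arrays and in Stat3Δhc Mdr2-/- array A, and arrays B and C of that genotype had the Y-linked pattern. Sex pattern and Mdr2 genotype therefore cannot be told apart in floxed liver. On the knockout, the Stat3 comparison sets 3 floxed arrays with the Xist pattern against 1 deleted array with it and 2 without. That comparison, the difference of the Stat3 effects and their mean are therefore unbalanced in sex pattern too. In whole tissue, fewer cells of a type and less RNA per cell cannot be told apart either.

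Stat3, the deleted gene, fell in both settings, with no overlap between floxed and deleted liver. Log2 signals in Stat3Fl/Fl arrays A, B and C were 9.19, 9.32 and 9.19, against 7.71, 7.73 and 7.69 in Stat3Δhc. On the Mdr2 knockout they were 9.37, 9.27 and 9.54 in floxed liver and 8.12, 7.80 and 7.82 in deleted liver. Every deleted array lay more than 1 log2 unit below every floxed array, and array A was the highest of the deleted ones. Without the knockout Stat3 fell 2.88-fold, a log2 change of -1.52 with a standard error (SE) of 0.10 and an adjusted p of 1.08e-05 (limma, Benjamini-Hochberg adjustment over all 13977 tested genes). On the knockout it fell 2.79-fold, a log2 change of -1.48 with SE 0.10 and adjusted p 1.55e-05. The residual signal was 34.8% of the floxed level without the knockout, with a 95% interval of 29.9 to 40.5%, and 35.9% with it, with an interval of 30.8 to 41.7%. The difference between the 2 deletion effects was 0.04 on the log2 scale, with an interval of -0.26 to 0.35 and an adjusted p of 0.875. The exons that the deletion removes are not given in the sources used here, and which cells hold the residual signal was not tested.

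No other STAT gene passed the test for Stat3 deletion in either setting. Stat3 was thus 1 of 5 tested STAT genes called in each, beside 2.58% of all tested genes called without the knockout, 5.77% on it and 10.2% for the mean of both effects. Averaged over both settings, the log2 changes were -0.06 for Stat2 with a 95% interval of -0.18 to 0.06, -0.04 for Stat5a with an interval of -0.23 to 0.15, 0.03 for Stat5b with an interval of -0.14 to 0.19, and -0.0022 for Stat6 with an interval of -0.14 to 0.14. The widest of these intervals, that of Stat5a, leaves room for changes of up to 1.17-fold. For the difference between both deletion effects 0 of 5 STAT genes were called, beside 0.0715% of all tested genes by limma; 10 genes were called and 2360 had an unadjusted p under 0.05. Among the STAT genes that difference was largest in size for Stat6, at -0.22 with SE 0.13 and adjusted p 0.376.

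**Figure D1:**
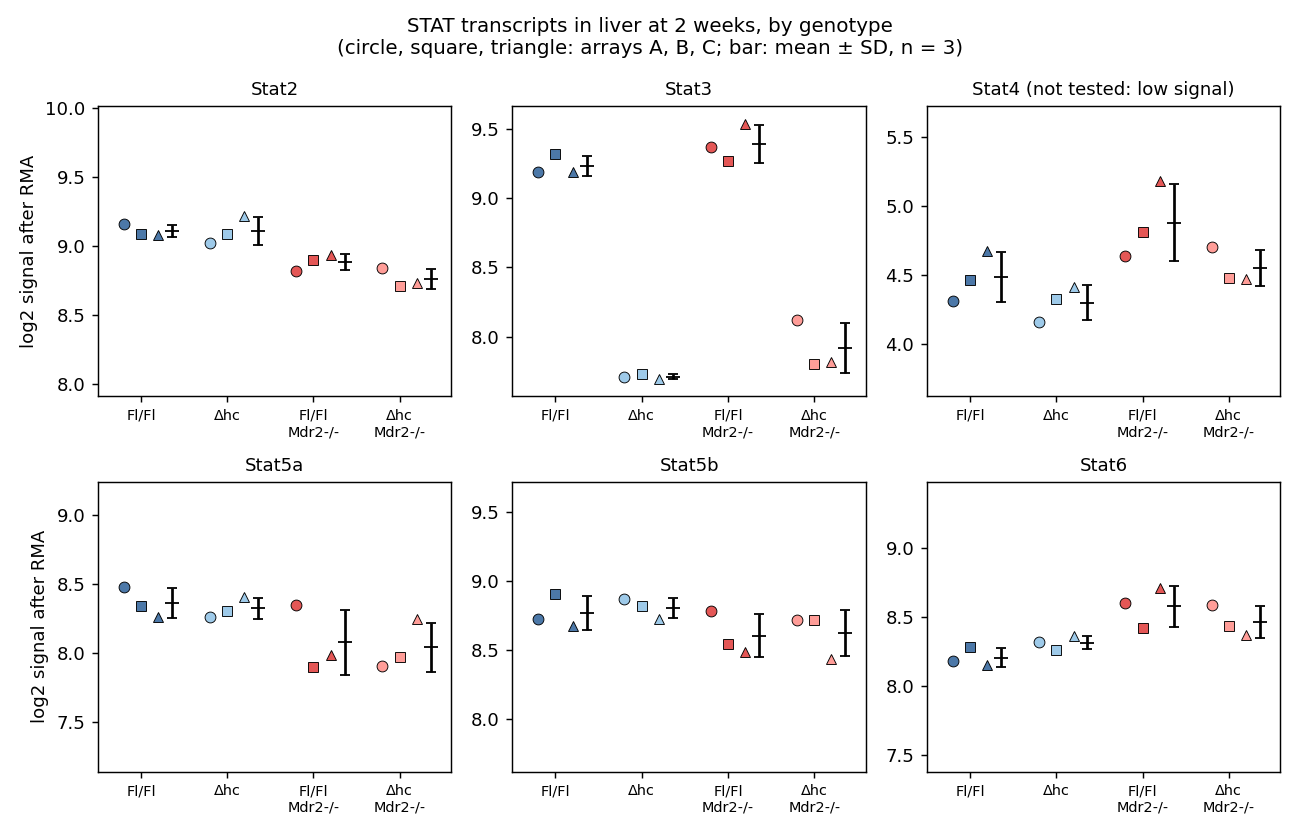
Log2 signal after RMA (vertical axis) of the 6 STAT transcripts in the 4 genotypes (horizontal axis); circles, squares and triangles are arrays A, B and C, and bars give the mean and SD of 3 arrays. All panels span the same log2 range, so differences can be set side by side across genes while levels cannot; Stat3 drops from 9.19 to 9.54 in floxed arrays to 7.69 to 8.12 in deleted arrays.

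With the Mdr2 knockout Stat2 was lower and Stat6 higher, each past the threshold in 1 Stat3 background. For neither gene was the difference between the 2 backgrounds called. In floxed liver, where Mdr2 genotype and sex pattern cannot be told apart, 1 of 5 tested STAT genes was called, Stat6, beside 12.8% of all tested genes. In Stat3 deleted liver 1 of 5 was called, Stat2, beside 17.4% of all tested genes. A comparison of the mean Mdr2 effect over both Stat3 genotypes, added after the data had been seen, called 3 of 5, Stat2, Stat5a and Stat6, beside 24.6% of all tested genes. The floxed and the deleted comparison have no array in common, while each shares arrays with the Stat3 comparisons.

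Stat2 encodes the STAT that binds DNA with IRF9 in the interferon response. Its log2 signals in arrays A, B and C were 9.16, 9.09 and 9.08 in Stat3Fl/Fl and 9.02, 9.09 and 9.21 in Stat3Δhc. They were 8.82, 8.90 and 8.93 in Stat3Fl/FlMdr2-/- and 8.84, 8.71 and 8.73 in Stat3Δhc Mdr2-/-. All 6 arrays without the knockout lay above all 6 with it. In Stat3 deleted liver Stat2 fell 1.27-fold with Mdr2 loss (log2 change -0.35, SE 0.08, adjusted p 0.0109). In floxed liver its log2 change was -0.23 with SE 0.08 and adjusted p 0.0831, and the difference between these 2 effects, -0.12 with SE 0.11, had an adjusted p of 0.556. The mean effect was -0.29 with SE 0.06 and adjusted p 0.00254. The call in deleted liver was lost without Stat3Δhc array C, at -0.29 and adjusted p 0.0572, and was kept when the sex pattern was a covariate, at -0.39 and adjusted p 0.0136. Among arrays with the Y-linked pattern, the 3 Stat3Δhc arrays lay between 9.02 and 9.21 and the 2 Stat3Δhc Mdr2-/- arrays between 8.71 and 8.73. The covariate rests on Stat3Δhc Mdr2-/- array A against B and C, so its change of -0.39 is the difference between these Y-linked arrays. Both are the same check, of 3 arrays against 2, and not separate ones. The part of the muscle, pancreas and erythroid transcripts in this result was not tested.

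The 300 bases around the start of Stat2 are shown because they hold letters of both kinds that STATs are known to read. RefSeq promoters (GRCm38.p6) were listed for all 6 STAT genes, 9 promoters in all, each with 250 bases before and 50 after the first base of the gene, and were searched on both strands for TTCNNNGAA, for TTCNNNNGAA (the wider spacing known for STAT6 dimers) and for GAAANNGAAA, the core of the element bound by STAT2 with IRF9. Of all 32841 promoters of that length, 8.3% held the first, 6.95% the second and 3.44% the third. Among the STAT promoters 2 of 9 held a match. That of Stat2 had GAAANNGAAA (on the opposite strand) from base -222 to -213 and TTCNNNNGAA from -210 to -201, without overlap, and the other was the downstream one of the 2 listed for Stat4, with GAAANNGAAA from -97 to -88. Capitals mark the matches, on the strand of the gene, in chr10:128270248-128270547 (+).
Stat2 promoter: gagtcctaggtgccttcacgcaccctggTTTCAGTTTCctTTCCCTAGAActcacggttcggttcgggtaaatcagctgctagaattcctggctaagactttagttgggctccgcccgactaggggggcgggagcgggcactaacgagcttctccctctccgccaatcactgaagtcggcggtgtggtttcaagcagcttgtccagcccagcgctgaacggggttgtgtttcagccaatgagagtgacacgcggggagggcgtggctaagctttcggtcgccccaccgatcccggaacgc

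Stat6 encodes the STAT that interleukin 4 and interleukin 13 activate. Its log2 signals in arrays A, B and C were 8.18, 8.28 and 8.15 in Stat3Fl/Fl and 8.32, 8.26 and 8.36 in Stat3Δhc. With the knockout they were 8.60, 8.42 and 8.71 in floxed and 8.59, 8.44 and 8.37 in deleted liver. The groups did not overlap in either Stat3 background, and the gap was narrowest in deleted liver, where 8.36 was the highest value without the knockout and 8.37 the lowest with it. In floxed liver Stat6 rose 1.29-fold (log2 change 0.37, SE 0.09, adjusted p 0.0194). In deleted liver its log2 change was 0.15 with SE 0.09 and adjusted p 0.255; these 2 effects differ by the -0.22 given above, which was not called. The mean effect was 0.26 with SE 0.07 and adjusted p 0.0113. The call in floxed liver was lost without Stat3Fl/Fl array A or C or Stat3Fl/FlMdr2-/- array A or C, with changes of 0.31 to 0.36 and adjusted p of 0.0578 to 0.0861. With sex pattern as covariate, which rests on Stat3Δhc Mdr2-/- array A against B and C, the change in floxed liver was 0.18 with adjusted p 0.709 and the mean effect 0.14 with adjusted p 0.432. Among Y-linked arrays of deleted liver the Stat6 difference was 0.09. The part of sex and of the muscle, pancreas and erythroid transcripts in the Stat6 rise was not tested beyond these values.

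Stat5a and Stat5b encode the closely related STATs that relay growth hormone and prolactin. Stat5a signals in arrays A, B and C were 8.48, 8.34 and 8.27 in Stat3Fl/Fl, 8.26, 8.31 and 8.41 in Stat3Δhc, 8.35, 7.90 and 7.98 in Stat3Fl/FlMdr2-/-, and 7.91, 7.97 and 8.25 in Stat3Δhc Mdr2-/-. In each knockout genotype 1 array stood above the others, A in floxed and C in deleted liver. The log2 change with Mdr2 loss was -0.29 with adjusted p 0.163 in floxed and -0.28 with adjusted p 0.125 in deleted liver, and the mean effect, -0.28 with SE 0.09, was called at adjusted p 0.0312. That call was lost in 7 of 12 fits that each left out 1 array, with adjusted p of up to 0.0732, when the sex pattern was a covariate, at -0.15 and adjusted p 0.532, and with cyclic loess scaling, at -0.26 and adjusted p 0.0695.

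Stat5b signals were 8.73, 8.91 and 8.67 in Stat3Fl/Fl, 8.87, 8.82 and 8.73 in Stat3Δhc, 8.78, 8.55 and 8.49 in Stat3Fl/FlMdr2-/-, and 8.72, 8.72 and 8.43 in Stat3Δhc Mdr2-/-. The floxed groups overlapped and the deleted groups were barely apart, at 8.73 against 8.72. Its changes with Mdr2 loss, -0.16 in floxed and -0.18 in deleted liver, had adjusted p of 0.381 and 0.243. Stat3 had changes of 0.16 with adjusted p 0.351 in floxed and 0.20 with adjusted p 0.167 in deleted liver, and neither was called; the first turned to -0.15 with sex pattern as covariate. The mean Mdr2 effect on Stat3 was called with cyclic loess scaling alone among the settings tried, at 0.21 and adjusted p 0.0339.

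In counts, the values of 2 of 5 tested STAT genes did not overlap between floxed genotypes, beside 33.3% of all tested genes, and those of 5 of 5 did not overlap between deleted genotypes, beside 37.2%.

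Stat4, known chiefly from T cells and NK cells, had low signal throughout. It read 4.31, 4.46 and 4.67 in Stat3Fl/Fl, 4.16, 4.32 and 4.41 in Stat3Δhc, 4.63, 4.81 and 5.18 in Stat3Fl/FlMdr2-/-, and 4.70, 4.48 and 4.47 in Stat3Δhc Mdr2-/-, while the 40th percentile of the arrays lay between 5.46 and 5.63. Values this low are described and not compared. The mean of 14 measured lymphocyte and NK cell transcripts was likewise low, between 5.33 and 5.70 in all 12 arrays. Of these, 8 were tested. With Mdr2 loss 3 of the 8 rose in deleted liver, 37.5% beside 17.4% of all tested genes: Nkg7 (0.58), Prf1 (0.46) and Cd3e (0.42). In floxed liver 0 of 8 were called, beside 12.8%. The part of these cells in the Stat4 values was not tested.

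The order of the genotype means differed by gene. Stat3 was highest in Stat3Fl/FlMdr2-/- (9.39 ± 0.14, SD, n = 3), then Stat3Fl/Fl (9.23 ± 0.07), Stat3Δhc Mdr2-/- (7.91 ± 0.18) and Stat3Δhc (7.71 ± 0.02), and the 2 floxed genotypes overlapped. Stat2 ran from Stat3Fl/Fl (9.11 ± 0.04) and Stat3Δhc (9.11 ± 0.10) down to Stat3Fl/FlMdr2-/- (8.88 ± 0.06) and Stat3Δhc Mdr2-/- (8.76 ± 0.07), with overlap inside each pair. Stat6 ran from Stat3Fl/FlMdr2-/- (8.58 ± 0.15) and Stat3Δhc Mdr2-/- (8.46 ± 0.11) down to Stat3Δhc (8.31 ± 0.05) and Stat3Fl/Fl (8.20 ± 0.07), again with overlap inside each pair. For Stat5a and Stat5b every pair of neighbours in the order overlapped. Between arrays of 1 genotype the residual SD was 0.07 for Stat2, 0.10 for Stat6, 0.12 for Stat3, 0.13 for Stat5b and 0.16 for Stat5a.

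**Figure D2:**
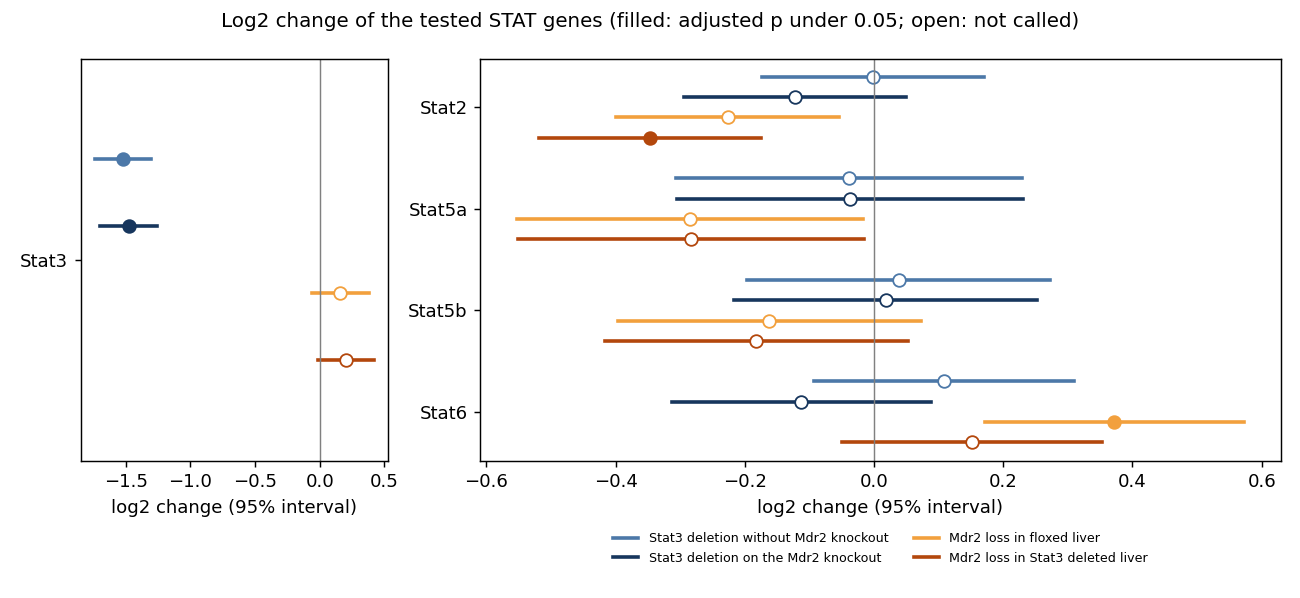
Log2 change with its 95% interval (horizontal axis) of the 5 tested STAT genes in the 4 comparisons of genotype pairs; filled points were called at an adjusted p under 0.05, open points were not, and Stat3 has a wider axis of its own. Stat3 lies near -1.5 in both deletion comparisons, and the only other filled points are Stat2 at -0.35 and Stat6 at 0.37.

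Stat5b, Stat5a and Stat3 lie side by side on mouse chromosome 11, in that order in the RefSeq annotation, so the neighbours of the deleted gene could be followed. The order is Kcnh4, Hcrt, Ghdc, Stat5b, Stat5a, Stat3, Cavin1, Atp6v0a1 and Naglu. For the mean effect of Stat3 deletion none of the 8 genes around Stat3 was called, beside 10.2% of all tested genes. Their log2 changes lay between -0.07 for Cavin1, which encodes a coat protein of caveolae, and 0.06 for Ghdc. Without the knockout they ran from -0.14 for Hcrt to 0.19 for Atp6v0a1, and on it from -0.10 for Atp6v0a1 to 0.14 for Kcnh4. None was called in either setting, beside 2.58% and 5.77%. Counts over 8 genes at these shares cannot show whether the neighbours moved. With Mdr2 loss 2 genes of the stretch were called for the mean effect, beside 24.6% of all tested genes. They were Stat5a at -0.28, whose call was lost in the fits given above, and Atp6v0a1, a subunit of the vacuolar proton pump, at 0.25 with adjusted p 0.0406. Atp6v0a1 was called in floxed liver, at 0.40 with limma adjusted p 0.0399, where Mdr2 genotype and sex pattern cannot be told apart. In deleted liver its change was 0.10 with adjusted p 0.534.

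**Figure D3:**
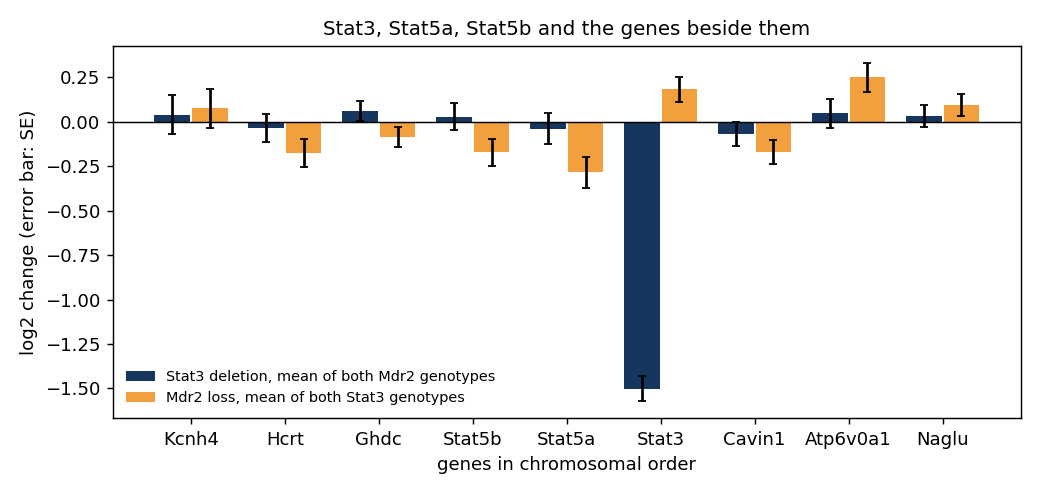
Log2 change with SE (vertical axis) of Stat3, Stat5a, Stat5b and the 3 genes to each side, in chromosomal order (horizontal axis); dark bars are the mean effect of Stat3 deletion and light bars the mean effect of Mdr2 loss. The dark bar of Stat3 reaches -1.50, and the dark bars of the other 8 genes stay between -0.07 and 0.06.

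The ligands that start STAT signalling were mostly below the level tested. Of 23 listed cytokines and hormones, 21 had a cluster and 6 were tested; Il6, the main inducer of STAT3 in liver, read 2.53 to 2.86 in all 12 arrays and was not tested. No tested ligand was called for Stat3 deletion in either setting. With Mdr2 loss in deleted liver 2 of the 6 were called, beside 17.4% of all tested genes. Clcf1, an interleukin 6 family cytokine, rose by 0.55 (adjusted p 0.0213), and Ctf1, another of that family, fell by 0.41 on the log2 scale (adjusted p 0.00685).

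Of 26 tested receptors 0 were called for Stat3 deletion without the knockout, beside 2.58% of all tested genes. On the knockout 4 fell, beside 5.77%, a count that was 0 with sex pattern as covariate and ran from 1 to 5 without single arrays. For the mean effect of Stat3 deletion 1 rose and 5 fell, beside the 10.2% of all genes, with a list median of -0.04 against -0.01 for all genes; with that covariate 2 in all were called. Il6ra, the interleukin 6 receptor chain, rose 1.42-fold (adjusted p 0.0192), and Egfr, the epidermal growth factor receptor, fell 1.77-fold (adjusted p 0.0048); with sex pattern as covariate these had adjusted p of 0.106 and 0.0537. Il13ra1, a chain of the receptor that activates STAT6, fell 1.46-fold for the mean effect; on the knockout alone it fell by 0.95, from 9.21 ± 0.04 to 8.27 ± 0.25 (SD, n = 3), with no overlap (adjusted p 0.00185), a call lost with sex pattern as covariate (adjusted p 0.0885). With Mdr2 loss 7 receptors rose and 0 fell in floxed liver, beside 12.8% of all genes, and 6 rose and 1 fell in deleted liver, beside 17.4%. The floxed count was 3 or 4 without Stat3Fl/Fl array A or C or Stat3Fl/FlMdr2-/- array A or C, and the deleted count ran from 5 to 8 without single arrays. Those that rose in both were Osmr (0.99 and 0.64), the oncostatin M receptor, Il6st (0.63 and 0.53), the shared signalling chain gp130, and Ifngr2 (0.39 and 0.46), a chain of the interferon gamma receptor, the last outside the rule for named genes; the Osmr call in deleted liver was lost without Stat3Δhc array A or C. With sex pattern as covariate no receptor was called in floxed liver. All 3 measured Janus kinases were uncalled in all comparisons, beside shares of all tested genes from 0.0715% to 24.6%. With cyclic loess scaling 1 was called for the mean Mdr2 effect. Counts over 3 genes at these shares cannot show whether the kinases moved.

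Among 17 tested inhibitors of STAT signalling, 0 rose and 2 fell for the mean effect of Stat3 deletion, beside 10.2% of all tested genes. Both, Socs2 and Cish, are suppressors of cytokine signalling known as growth hormone and STAT5 targets. Socs2 read 8.13, 9.14 and 8.57 in Stat3Fl/Fl against 6.53, 6.32 and 6.42 in Stat3Δhc, and 8.36, 9.77 and 8.35 in Stat3Fl/FlMdr2-/- against 7.12, 7.41 and 7.01 in Stat3Δhc Mdr2-/-. No deleted array reached a floxed one, and the mean fall was 3.78-fold (adjusted p 0.000435). Cish fell 2.09-fold (adjusted p 0.0104), a call lost with sex pattern as covariate (adjusted p 0.0812). Socs3, the suppressor known as a direct STAT3 target, was called only for Mdr2 loss in deleted liver, where it rose by 0.56 (adjusted p 0.0367). That call was lost with sex pattern as covariate (adjusted p 0.0706), with the replicate block (0.0532), and without array A or C of Stat3Δhc or of Stat3Δhc Mdr2-/- (0.0706 to 0.138).

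Known target genes of each STAT were counted to set beside the transcripts of the STATs themselves. The lists overlap: Pim1, Ccnd1 and Bcl2l1 stand under both STAT3 and STAT5, and some targets are also receptors or inhibitors. Of 27 tested STAT3 targets, 0 rose and 14 fell for the mean effect of Stat3 deletion, beside 10.2% of all tested genes, with a median of -0.23 against -0.01 for all genes. The count was 9 without Stat3Fl/Fl array C or Stat3Δhc array A, and 7 with sex pattern as covariate. Without the knockout 3 of 27 fell, beside 2.58% of all genes, and from 1 to 5 without single arrays; on it 8 fell, beside 5.77%, from 5 to 9 without single arrays and 1 with that covariate. Fgl1, a liver fibrinogen-like protein, fell 11.3-fold (adjusted p 7.55e-08); it read 11.65, 12.01 and 12.02 in Stat3Fl/Fl against 9.37, 9.07 and 9.68 in Stat3Δhc, and 11.24, 11.94 and 12.07 against 7.06, 7.46 and 7.28 on the knockout. Its fall on the knockout differed from that without it by a log2 value of -1.96 (adjusted p 0.038). That difference was no longer called with sex pattern as covariate (-2.16, adjusted p 0.0857) or in 8 of 12 fits that each left out 1 array. These were all fits but those without array A of Stat3Fl/Fl, Stat3Fl/FlMdr2-/- or Stat3Δhc Mdr2-/- or array C of Stat3Fl/FlMdr2-/-. Saa2, an acute phase apolipoprotein, read 6.09, 8.31 and 8.49 in Stat3Fl/FlMdr2-/- and 3.61 to 4.35 in the 6 deleted arrays, a level at which no fold is given. A2m, a protease inhibitor of the acute phase, fell 2.67-fold (adjusted p 0.00395) and Orm1, an acute phase plasma protein, 2.68-fold (adjusted p 0.0298), of which the second was not called with sex pattern as covariate (adjusted p 0.0977).

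With Mdr2 loss in floxed liver 13 of these 27 targets rose and 0 fell, beside 12.8% of all genes, and in deleted liver 10 rose and 2 fell, beside 17.4%. Lcn2, an iron-siderophore binding protein of inflammation, rose by 2.70 in floxed and by 2.79 in deleted liver, and Timp1, an inhibitor of matrix metalloproteinases, by 1.74 and 1.79. The 2 that fell in deleted liver were Fgl1, with a log2 change of -2.10, and Itih4, an inter-alpha-trypsin inhibitor chain outside the rule for named genes, with -0.33. In floxed liver the count was 8 without Stat3Fl/Fl array A, B or C or Stat3Fl/FlMdr2-/- array C, and 0 with sex pattern as covariate. In deleted liver 10 in all were called with that covariate. The Stat3 transcript itself was not called with Mdr2 loss in either background.

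Of 10 tested STAT5 targets, 0 rose and 6 fell for the mean effect of Stat3 deletion, beside 10.2% of all tested genes, with a median of -0.70 against -0.01 for all genes; Stat5a and Stat5b transcripts were uncalled. The count stayed at 6 or 7 without any single array and was 3 with sex pattern as covariate. Igfals, which encodes the subunit that keeps IGF1 complexes in the circulation, read 9.81, 9.79 and 9.73 in Stat3Fl/Fl against 8.30, 8.15 and 8.37 in Stat3Δhc, and 9.05, 9.24 and 8.84 against 6.45, 7.30 and 6.94 on the knockout. All deleted arrays lay below all floxed arrays, and the mean fall was 3.55-fold (adjusted p 4.7e-06). Igf1, insulin-like growth factor 1, fell 2.06-fold (adjusted p 8.61e-06), and Onecut1, a liver transcription factor known as a growth hormone target, fell 2.42-fold (adjusted p 0.0113, and 0.055 with sex pattern as covariate). Ccnd1, cyclin D1, fell 1.28-fold (adjusted p 0.0144). On the knockout alone 3 of 10 fell, beside 5.77% of all tested genes, and 6 when Stat3Fl/FlMdr2-/- array A was left out. In that array Cish read 7.10 and Onecut1 7.07, against 8.18 to 8.80 and 8.60 to 9.21 in arrays B and C.

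Targets of STAT2, STAT6 and STAT4 were counted in the same way. Of 16 tested STAT2 and Irf9 targets, 2 rose and 0 fell for the mean effect of Stat3 deletion, beside 10.2% of all tested genes: Ifit1, an interferon-induced antiviral protein, by 0.29 (adjusted p 0.0452), and Irf9 itself by 0.24 (adjusted p 0.0315). That count fell to 0 or 1 in 11 of 12 fits that left out 1 array, and with sex pattern as covariate neither was called (adjusted p 0.211 and 0.0623). With Mdr2 loss in deleted liver, where Stat2 fell, 2 of the 16 rose and 1 fell, beside 17.4% of all tested genes, and 1 in all was called without Stat3Δhc Mdr2-/- array C or Stat3Δhc array A. The 3 were Irf9 (0.32, adjusted p 0.074 with sex pattern as covariate), Oasl2 (0.41), an oligoadenylate synthetase-like gene, and Bst2 (-0.53), the virus-tethering protein tetherin. Of 5 tested STAT6 targets, Arg1, the arginase of the urea cycle in hepatocytes and a STAT6 target in macrophages, rose 1.67-fold for the mean effect of Stat3 deletion (adjusted p 0.00359), and Mrc1, the mannose receptor, fell by 0.45 on the log2 scale with Mdr2 loss in deleted liver. The shares of all tested genes for the Arg1 and Mrc1 comparisons were 10.2% and 17.4%. With Mdr2 loss in floxed liver, where Stat6 rose, 0 of the 5 were called, beside 12.8% of all tested genes. A count over 5 genes at that share cannot show whether STAT6 targets moved. Of 4 tested STAT4 targets 1 was called with Mdr2 loss in deleted liver, beside 17.4% of all tested genes. It was Furin, a proprotein convertase, which rose by 0.40 (adjusted p 0.0262). Its call was lost with sex pattern as covariate (adjusted p 0.0657) and without Stat3Δhc array A, B or C or Stat3Δhc Mdr2-/- array A or B.

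**Figure D4:**
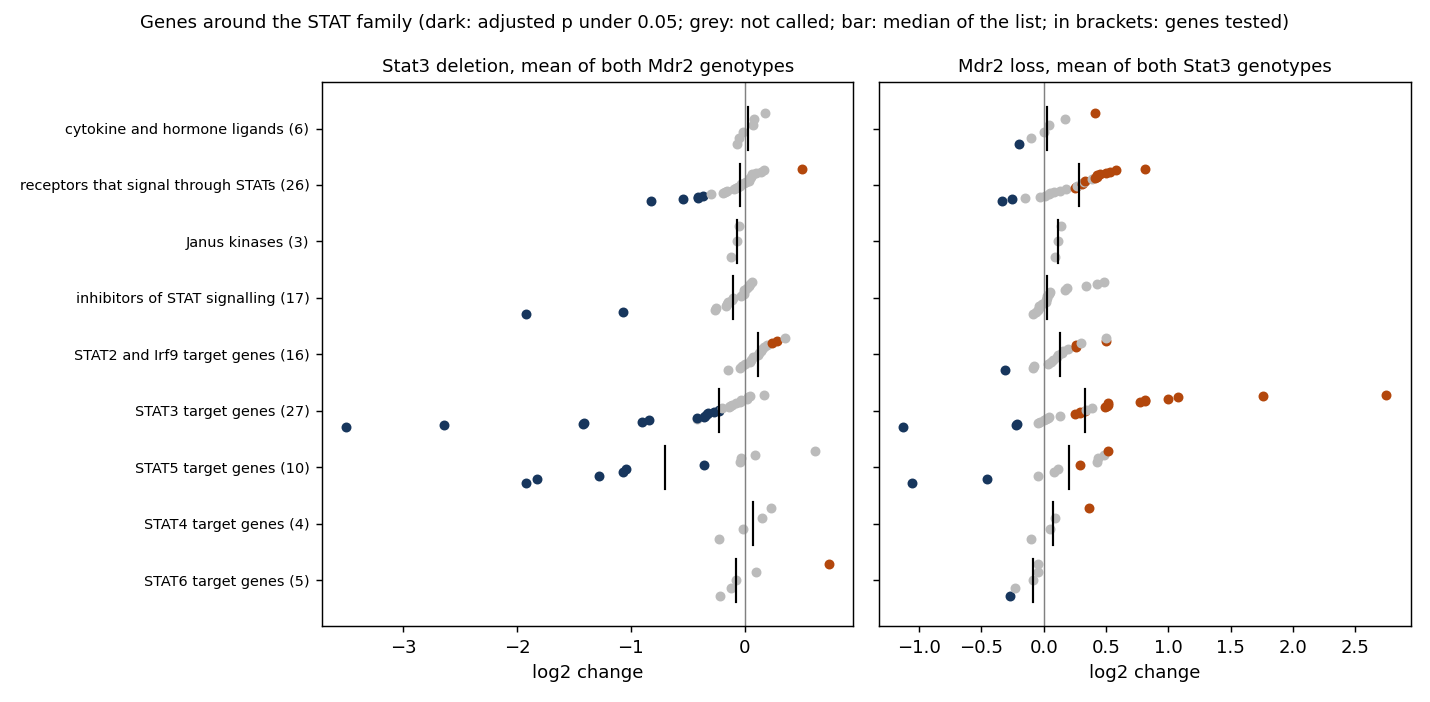
Log2 change (horizontal axis) of every tested gene of the 9 pathway lists (rows) for the mean effect of Stat3 deletion, left, and of Mdr2 loss, right; coloured points were called at an adjusted p under 0.05, grey points were not, and bars mark list medians. On the left the medians of STAT3 targets (-0.23) and STAT5 targets (-0.70) lie furthest below 0, and the Janus kinases hold no coloured point on either side.

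The STAT2 and Irf9, STAT3, STAT5 and STAT6 lists held 36 target genes called in any comparison, and STAT4 targets were not searched. Of the 36, 27 had a listed promoter, 32 promoters in all. Of these promoters 13 held a match to at least 1 of the motifs above, beside 17.3% of all 32841 promoters. The genes are known targets chosen by call, so this share is a description. The 4 shown next were chosen after their values were seen, to set target genes that moved beside the Stat2 promoter. They are the STAT5 targets Igfals and Cish, the suppressor Socs3 and the interferon target Ifit1. All 4 hold a match and do not stand for the set, in which 12 of 27 genes held one. Igf1, Onecut1, Timp1 and Saa2 also moved, and their listed promoters held no match. Igfals (the second of 3 listed promoters, chr17:24877981-24878280, +) had TTCNNNGAA from -58 to -50, Cish (chr9:107296409-107296708, +) from 1 to 9 and from 12 to 20, and Socs3 (chr11:117969317-117969616, -) from -154 to -146, while Ifit1 (chr19:34640639-34640938, +) had GAAANNGAAA on the opposite strand from -104 to -95 and from -85 to -76. A match describes letters and not binding.
Igfals promoter: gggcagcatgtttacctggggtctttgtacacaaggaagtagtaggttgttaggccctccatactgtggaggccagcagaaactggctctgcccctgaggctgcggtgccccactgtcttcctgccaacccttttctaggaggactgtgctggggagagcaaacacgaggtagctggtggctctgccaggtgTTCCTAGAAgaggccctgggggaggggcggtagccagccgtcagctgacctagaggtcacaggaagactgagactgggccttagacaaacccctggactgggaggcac
Cish promoter: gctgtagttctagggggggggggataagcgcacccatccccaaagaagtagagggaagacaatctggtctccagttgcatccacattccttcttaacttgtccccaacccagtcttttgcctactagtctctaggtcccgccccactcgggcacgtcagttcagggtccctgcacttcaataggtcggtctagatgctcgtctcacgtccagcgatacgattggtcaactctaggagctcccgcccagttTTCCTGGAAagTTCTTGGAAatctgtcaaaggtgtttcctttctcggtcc
Socs3 promoter: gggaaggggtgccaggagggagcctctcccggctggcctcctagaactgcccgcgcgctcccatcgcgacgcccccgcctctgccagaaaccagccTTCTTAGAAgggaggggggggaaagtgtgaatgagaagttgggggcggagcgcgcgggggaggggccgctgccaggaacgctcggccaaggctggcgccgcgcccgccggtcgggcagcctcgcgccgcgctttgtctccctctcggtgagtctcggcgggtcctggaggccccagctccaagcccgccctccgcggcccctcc
Ifit1 promoter: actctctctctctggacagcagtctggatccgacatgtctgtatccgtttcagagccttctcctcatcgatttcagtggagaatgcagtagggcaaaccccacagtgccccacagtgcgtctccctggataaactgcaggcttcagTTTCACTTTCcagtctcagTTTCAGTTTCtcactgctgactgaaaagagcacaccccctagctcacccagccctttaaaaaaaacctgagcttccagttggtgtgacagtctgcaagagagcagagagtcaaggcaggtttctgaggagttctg

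Among themselves the STAT genes varied in different patterns, given here as correlations over the 12 arrays, which share genotypes and tissue composition. Among the 5 tested genes Stat2 and Stat5a had the highest value (r = 0.63) and Stat5a and Stat6 the lowest (-0.59). After each genotype's mean was subtracted, Stat3 and Stat6 had r = 0.87, against 0.15 before. In 3 of 4 genotypes the array highest in Stat3 was also highest in Stat6, which was array B in Stat3Fl/Fl, C in Stat3Fl/FlMdr2-/- and A in Stat3Δhc Mdr2-/-. The array with the Xist pattern in the last genotype is that array A.

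The tested genes outside the family whose log2 signals were most like each tested STAT were found by Pearson r over the same 12 arrays. For Stat3 they were Slc22a26 and Abca8b (both r = 0.96) and Fn1, fibronectin (r = 0.95). Within genotypes these became 0.32, 0.29 and 0.76, so the first 2 were alike mainly across genotypes. For Stat2 they were Mgst1, Gcfc2 (both 0.95) and Klhl4 (0.94), for Stat6 Pip4p2 (0.96), Mid1 and Prkca (both 0.94), and for Stat5b Mrpl35 (0.93), Lrrc32 (0.92) and Plg (0.88). For Stat5a they were Mylk2, a myosin light chain kinase of skeletal muscle (0.91), Mapt (0.91) and Gpr12 (0.90), and within genotypes 0.89, 0.80 and 0.80. Mylk2 read 5.36 to 6.33 and Gpr12 5.08 to 5.86, near the 40th percentile of the arrays (5.46 to 5.63). Stat5a and the skeletal muscle transcripts given above were both lower on average with the knockout, and the part of muscle in the Stat5a signal was not tested. Klhl4 and Mid1 lie on the X chromosome.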

How the data were processed

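The data are 12 Affymetrix Gene 1.0 ST arrays of mouse whole liver RNA (4 genotypes, 3 arrays per genotype). The values deposited by the authors are log2 signals normalised by RMA (version not given), per the submitters' processing notes; the aligner and build are not given in the sources used here, and RMA's scaling makes every change relative to the bulk of transcripts. Clusters were named from the platform annotation: of 35556 clusters, 21789 named 1 gene, and the cluster of highest mean over the arrays stood for a gene. Genes exceeding the 40th percentile of their own array on 3 or more arrays were tested with limma 3.58.1 in R 4.3.3, in 1 fit with a mean per genotype (residual degrees of freedom 8). The fit was tested on simulated data. Benjamini-Hochberg adjustment ran over 13977 genes, and a gene was called at an adjusted p under 0.05. Python 3.11.15 with matplotlib 3.10.9 drew the figures. The number of arrays limits the precision. The 7 comparisons are 6 planned ones and the mean Mdr2 effect, added after the data were seen. Members, gene lists and comparisons were chosen with earlier results of these data known. Genes named besides the STATs and Abcb4 were up to 4 called genes per list and comparison by size, the 3 most like each tested STAT and the 3 genes on each side of the Stat3 locus. Alternatives were no filter, cyclic loess scaling, the mean of a gene's clusters, the letter as replicate block, array weights, trended and robust moderation, the sex pattern as covariate, and leaving out each array.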

Additional observations from a re-analysis of the deposited data

How the results depend on the processing

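Stat3 was called for deletion in both settings under every alternative and without any single array. Of 665 recomputed values of the 5 tested STAT genes, 600 kept direction and side of the threshold; of 1691 for other named genes, 1435 did. The labels do not state that the letters A, B and C pair arrays. Correlations of same-letter deviations ran from -0.41 to 0.37, which with 3 arrays per genotype cannot show whether they do. With the letter as a replicate block the count of STAT genes called stayed at 1 in both Mdr2 comparisons and no STAT call changed. Calls gained elsewhere were Stat2 for Mdr2 loss in floxed liver with cyclic loess (-0.25, adjusted p 0.0385), Stat5a in deleted liver (-0.29, adjusted p 0.0079) and Stat5b for the mean effect (-0.17, adjusted p 0.0375) with array weights, and Stat5a in floxed liver without Stat3Fl/FlMdr2-/- array A (-0.42, adjusted p 0.0403). The cause of the changes below was not tested.

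For Mdr2 loss in floxed liver the count of 1 STAT gene became 2 with cyclic loess scaling, 0 with the sex pattern covariate and 3 for the mean Mdr2 effect, and ran from 0 to 1 without single arrays (0 without Stat3Fl/Fl array A or C or Stat3Fl/FlMdr2-/- array C). For Mdr2 loss in Stat3 deleted liver the count of 1 became 2 with array weights and 3 for the mean Mdr2 effect, and ran from 0 to 1 without single arrays (0 without Stat3Δhc array C). The following reversals concern uncalled changes, in log2 units. With array weights the difference of the Stat3 effects became -0.025 for Stat3, -0.0012 for Stat5a and 0.029 for Stat5b. With cyclic loess it became 0.10 for Stat5b, the Stat3 deletion effect on the knockout became 0.0585 for Stat5a, and the mean Stat3 effect became 0.031 for Stat6. With the sex covariate the difference became -0.13 for Stat5a and 0.0735 for Stat5b, Mdr2 loss in floxed liver -0.15 and its mean effect -0.026 for Stat3, the mean Stat3 effect 0.060 for Stat6, and Stat3 deletion on the knockout 0.0125 for Stat6. Without single arrays, Stat3 deletion without the knockout ran from -0.055 to 0.0425 for Stat2, from -0.087 to 0.020 for Stat5a and from -0.0093 to 0.11 for Stat5b. On the knockout it ran from -0.14 to 0.098 for Stat5a and from -0.041 to 0.11 for Stat5b. Its mean ran from -0.089 to 0.030 for Stat5a, from -0.0015 to 0.076 for Stat5b and from -0.042 to 0.031 for Stat6. The difference ran from -0.0595 to 0.12 for Stat3, from -0.10 to 0.14 for Stat5a and from -0.088 to 0.075 for Stat5b.

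Counts over all genes moved more: 361 genes called for Stat3 deletion without the knockout ran from 69 to 2955, 806 on the knockout from 37 to 2298, the 10 for their difference from 0 to 567, 1421 for their mean from 538 to 3691, 1785 for Mdr2 loss in floxed liver from 102 to 2330, 2431 in deleted liver from 1156 to 5830, and 3438 for its mean from 798 to 4978. The lowest was with the sex covariate in 4 of the 7 and the highest with array weights in all 7. Signal near background limits Stat4 and most ligands.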
